A study of Mus musculus with 4 samples.

Results

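The report concerns 10 mouse genes, Tal1, Tal2, Lmo1, Lmo2, Lyl1, Tlx1, Tlx3, Hhex, Mef2c and Myb, whose human counterparts act as oncogenic transcription factors or cofactors in T-cell acute lymphoblastic leukemia (T-ALL). They were chosen by name, and each locus was taken as the gene body plus 20 kb on each side. The 10 genes were compared with the 15865 of 21887 protein-coding genes that could be placed in build mm9, a set that includes them. The cells were not T cells: the study profiled cultured C57BL/6J pre-B leukemia cells with overexpressed BCR-ABL1 on a p19 null background by chromatin immunoprecipitation and sequencing (ChIP-seq). ChIP libraries were made with antibodies to PHF6, to H3K27ac and to H3K27me3, beside input DNA, all from cells of this 1 genotype. Each antibody had 1 library, so no value below has a replicate error and no difference was tested. The input library was not analysed here.

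PHF6 is an X-linked chromatin protein with PHD-type zinc fingers that is recurrently mutated in human T-ALL, where its mutations are known to occur together with TLX1 and TLX3 activation. H3K27ac marks active promoters and enhancers, and H3K27me3 is the mark of Polycomb repressive complex 2. In human T-ALL, chromosome rearrangements place TAL1, TAL2, LYL1, LMO1, LMO2, TLX1 or TLX3 under regulatory elements that are active in thymocytes. TAL1, TAL2 and LYL1 are basic helix-loop-helix factors that pair with E proteins, and LMO1 and LMO2 are LIM-domain proteins that bridge such pairs to LDB1 and GATA factors. TLX1, TLX3 and HHEX are homeodomain proteins, MEF2C is a MADS-box factor also active in B-cell development, and MYB is a factor required in early lymphoid and blood progenitors.

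The sequences below are the 250 bases before a listed start of 6 of the genes, shown because their starts differ in which of PHF6 and H3K27ac they held and how tall the peaks were. They are from RefSeq, build GRCm38.p6, and are written 5′ to 3′ on the gene's strand with CpG dinucleotides in capitals. Their positions are chr10:21160985-21161234 (minus strand) for Myb, chr19:37434591-37434840 (plus) for Hhex, chr8:84701207-84701456 (plus) for Lyl1, chr11:33203589-33203838 (minus) for Tlx3, chr4:53779451-53779700 (plus) for Tal2 and chr13:83523406-83523655 (plus) for the second of 3 Mef2c starts.
Myb: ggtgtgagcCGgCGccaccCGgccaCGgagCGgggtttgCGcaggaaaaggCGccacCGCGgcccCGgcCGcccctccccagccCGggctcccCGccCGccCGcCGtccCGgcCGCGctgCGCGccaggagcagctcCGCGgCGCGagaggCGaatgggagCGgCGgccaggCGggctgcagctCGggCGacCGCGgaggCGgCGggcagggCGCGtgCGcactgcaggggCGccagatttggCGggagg
Hhex: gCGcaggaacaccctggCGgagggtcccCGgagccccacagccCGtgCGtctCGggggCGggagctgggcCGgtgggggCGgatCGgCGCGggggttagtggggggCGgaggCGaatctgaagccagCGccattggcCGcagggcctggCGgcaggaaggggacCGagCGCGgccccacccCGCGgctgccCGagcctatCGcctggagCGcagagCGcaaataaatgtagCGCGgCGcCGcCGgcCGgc
Lyl1: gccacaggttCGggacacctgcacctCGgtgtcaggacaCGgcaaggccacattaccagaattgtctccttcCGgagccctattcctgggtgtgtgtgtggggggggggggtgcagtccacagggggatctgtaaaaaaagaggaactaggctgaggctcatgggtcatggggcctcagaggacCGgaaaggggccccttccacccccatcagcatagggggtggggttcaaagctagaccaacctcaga
Tlx3: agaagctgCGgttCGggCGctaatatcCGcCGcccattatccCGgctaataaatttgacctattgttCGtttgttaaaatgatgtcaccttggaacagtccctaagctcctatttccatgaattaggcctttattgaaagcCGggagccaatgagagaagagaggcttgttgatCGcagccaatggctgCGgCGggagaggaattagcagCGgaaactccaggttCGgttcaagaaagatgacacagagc
Tal2: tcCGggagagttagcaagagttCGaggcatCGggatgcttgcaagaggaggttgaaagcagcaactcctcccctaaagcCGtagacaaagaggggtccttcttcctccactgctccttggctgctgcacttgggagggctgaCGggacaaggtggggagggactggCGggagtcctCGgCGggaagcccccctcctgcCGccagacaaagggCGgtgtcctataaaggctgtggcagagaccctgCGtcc
Mef2c: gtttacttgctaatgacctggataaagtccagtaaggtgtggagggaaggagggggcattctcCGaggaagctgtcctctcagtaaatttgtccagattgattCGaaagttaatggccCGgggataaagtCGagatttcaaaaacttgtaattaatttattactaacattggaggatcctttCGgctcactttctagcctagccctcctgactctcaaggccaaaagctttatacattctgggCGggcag
These windows held 40 CpG dinucleotides for Myb, 32 for Hhex, 5 for Lyl1, 13 for Tlx3, 11 for Tal2 and 6 for the second Mef2c start. All 32851 listed promoters had a median of 6 CpG (quartiles 2 and 16), so the Myb window stood at the 98.8th percentile and the Lyl1 window at the 47.0th.

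Peaks are given by mm9 position, and the value of each is the authors' summit height, a whole-number pileup. Height percentiles rank a peak within its own list, since the heights of different antibodies cannot be compared. The genes' positions were moved from GRCm38 to mm9 by the local offset at which tall H3K27ac summits matched listed gene starts, with a gene's own starts left out of its match. Distances from a start therefore carry an error of the order of the scatter of matched summits, which had a median of 47 to 184 bp among the 10 genes. The fewest matched summits were 5 for Tal2 and 4 for Mef2c, which also had the widest scatter (184 and 140 bp).

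PHF6 and H3K27ac were each present at 9 of the 10 loci, and the genes that lacked them differed. Mef2c had H3K27ac and 0 PHF6 peaks, and Tal2 had PHF6 and 0 H3K27ac peaks. Among all placed genes 90.5% of loci held PHF6 and 81.6% held H3K27ac, so the counts of 9 were near the background. The 10 loci held 44 PHF6 peaks with a median height of 23.5 (15 to 53) and 31 H3K27ac peaks with a median height of 35 (16 to 378). These medians were close to those of the whole lists, 22 for PHF6 and 35 for H3K27ac. H3K27me3 was called at 4 loci, with 1 peak each, against 28.0% of placed genes.

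**Figure D1:**
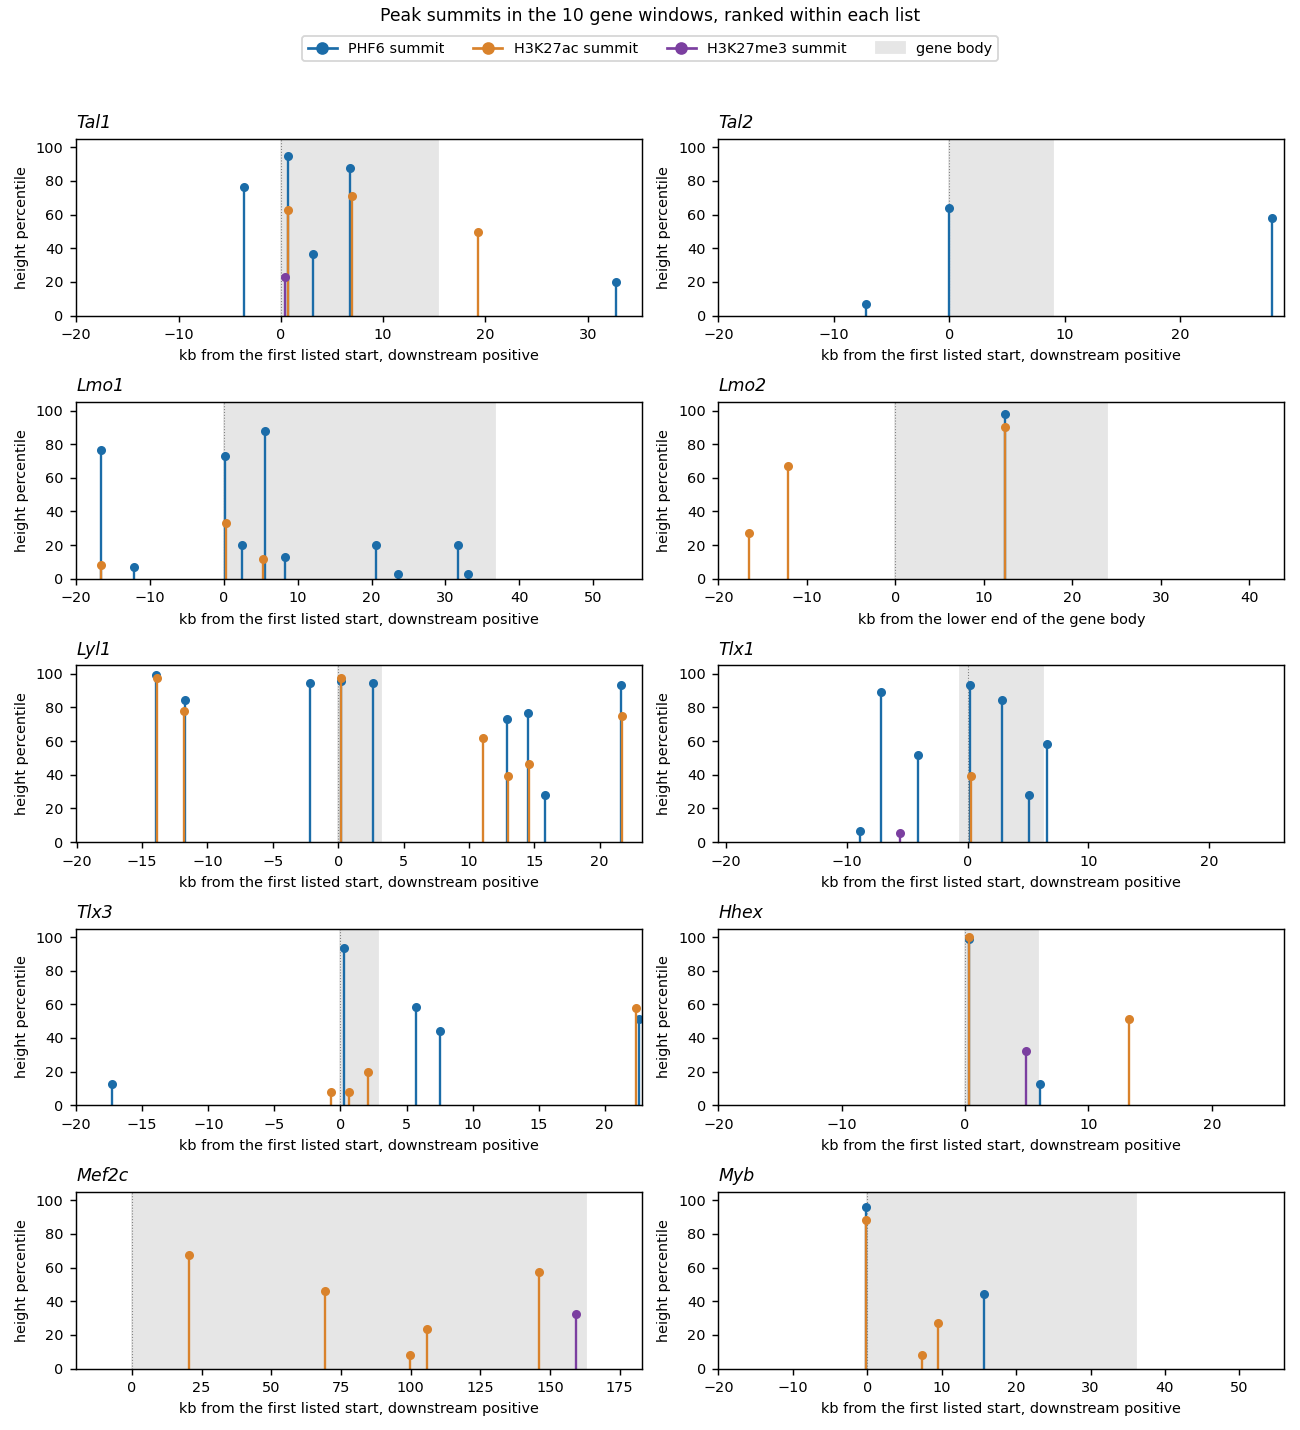
Summits of the 3 peak lists in the windows of the 10 genes; the horizontal axis is the distance in kb from the first listed start (for Lmo2 from the lower end of the gene body), the vertical axis the percentile of the summit height within its own list, and grey marks the gene body. Hhex, Lyl1 and Myb have tall PHF6 and H3K27ac summits at the start, Tlx1 and Tlx3 have PHF6 near the 93rd percentile with low H3K27ac, and Mef2c has no PHF6 summit.

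At the starts themselves the genes spread over the whole range of acetylation. Start sites were used for 9 genes, all but Lmo2, and a peak was counted at a start when it came within 1 kb of any listed start. PHF6 lay at 8 of the 9 starts and H3K27ac at 8, against 72.1% and 66.1% of 13380 placed genes with a listed start. Both were present at 7 of the 9 starts, against 60.1%. An H3K27ac summit of height 200 or more was found at 3 starts, those of Hhex, Lyl1 and Myb, against 40.8%. The median H3K27ac height over the 9 starts, with 0 for no peak, was 67, and over all placed genes it was 87. The corresponding medians for PHF6 were 37 and 28.

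Hhex had the tallest acetylation of the 10 genes. The homeodomain repressor it encodes is needed for definitive blood and liver development and for early B-cell development. Its start lay in an H3K27ac peak on chromosome 19 from 37508071 to 37512429 with a height of 378, at the 99.9th percentile of the list. A PHF6 peak from 37508081 to 37512175 covered nearly the same bases, and both summits lay at 37509712, 0.329 kb downstream of the start. The PHF6 height there was 51, at the 99.0th percentile. Of the 5221 placed genes with a start acetylated to 200 or more and with PHF6, 90.6% had a lower PHF6 summit. The rest of the Hhex locus held an H3K27ac peak without PHF6 13.3 kb downstream of the start (height 37, 51.4th percentile). It also held a low PHF6 peak 6.10 kb downstream (height 17) and a low H3K27me3 peak 4.95 kb downstream (height 14).

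Myb, like Hhex, had tall H3K27ac and PHF6 at its start. An H3K27ac peak on chromosome 10 from 20877761 to 20881993 reached a height of 301, at the 88.2nd percentile, and the PHF6 peak inside it reached 41, at the 95.9th. Of the 5221 placed genes with PHF6 at a start acetylated to 200 or more, 59.7% had a lower PHF6 summit than Myb and than Lyl1, whose start also had 41. The summits were 1 bp apart, and that of PHF6 lay 0.233 kb upstream of the start. Within the gene, 2 low H3K27ac peaks of heights 21 and 16 lay 9.48 and 7.41 kb from the start without PHF6. A PHF6 peak of height 21 lay 15.7 kb from the start without H3K27ac. The Myb locus thus held 2 PHF6 peaks in 76.1 kb, at the 30.3rd percentile of placed genes by PHF6 peaks per kb of window.

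Lyl1 had the densest cover of both marks, but in a crowded neighbourhood. Its window of 43.3 kb held 9 PHF6 and 7 H3K27ac peaks, at the 86.8th and 96.3rd percentiles of placed genes by peaks per kb of window. The start lay in an H3K27ac peak of 12356 bp on chromosome 8 from 87221219 to 87233574, with a height of 351 and its summit 0.190 kb downstream of the start. Few H3K27ac peaks are as wide (99.9th percentile of width). PHF6 was broken into 3 peaks over that stretch, with heights of 39, 41 and 39, and the middle one had its summit 0.221 kb from the Lyl1 start. The tallest PHF6 peak of the window (53) and an H3K27ac peak of height 352 lay 13.9 kb upstream of the Lyl1 start. Both summits were inside the bodies of Nacc1 and Trmt1, 0.311 kb (PHF6) and 0.290 kb (H3K27ac) from an end of Nacc1. The 4 PHF6 and 4 H3K27ac peaks downstream lay inside Nfix. The tallest of these (PHF6 37, H3K27ac 175) had summits 0.026 and 0.100 kb from the start of the non-coding RNA gene G430095P16Rik. Of the 16 PHF6 and H3K27ac summits of the window, 3 lay outside the bodies of other coding genes, and 8 of the 19 PHF6 peaks on H3K27ac at the 10 loci were in this 1 window.

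Lmo2 held a single PHF6 peak, and it was tall. It ran from 103809263 to 103811734 on chromosome 2, with a height of 47 at the 98.2nd percentile of the list. It lay inside the gene body, 12.4 kb from the lower and 11.6 kb from the higher end. An H3K27ac peak of height 311 (89.9th percentile) covered it, with summits 29 bp apart. Another 2 H3K27ac peaks, of heights 93 and 21, lay 12.2 and 16.5 kb below the lower end of the gene and held no PHF6. With 1 PHF6 peak in 64.0 kb Lmo2 stood at the 17.4th percentile of placed genes by PHF6 peaks per kb of window, so its PHF6 signal was 1 tall site in a sparse locus.

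Tal1 was marked at an intermediate level and carried all 3 signals at its start, H3K27me3 only weakly. That H3K27me3 peak had a height of 13 and a score of 64.5, at the 10.3rd percentile of its list by score. The first start lay in an H3K27ac peak of height 67 (62.8th percentile) on chromosome 4 from 114728818 to 114730836, together with a PHF6 peak of height 39 (94.7th percentile). Among the 650 placed genes with a start acetylated between 31 and 100 and with PHF6, 86.5% had a lower PHF6 summit. The tallest H3K27ac of the locus was not at the start but inside the gene, at 114735897, 6.91 kb from the first start. It had a height of 126 and coincided with a PHF6 peak of height 32. The other H3K27ac peak, of height 35, lay 19.3 kb downstream of the first start, between Tal1 and Pdzk1ip1, and held no PHF6. In mouse a blood stem-cell enhancer of Tal1 is known downstream of the gene, and whether this peak corresponds to it was not tested. PHF6 without H3K27ac was found 3.59 kb upstream (height 27), 3.18 kb downstream (height 20) and inside the neighbour Pdzk1ip1, 0.493 kb from its start (height 18). The peak 3.18 kb downstream lay 0.292 kb from the start of the non-coding RNA gene Gm33786.

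**Figure D2:**
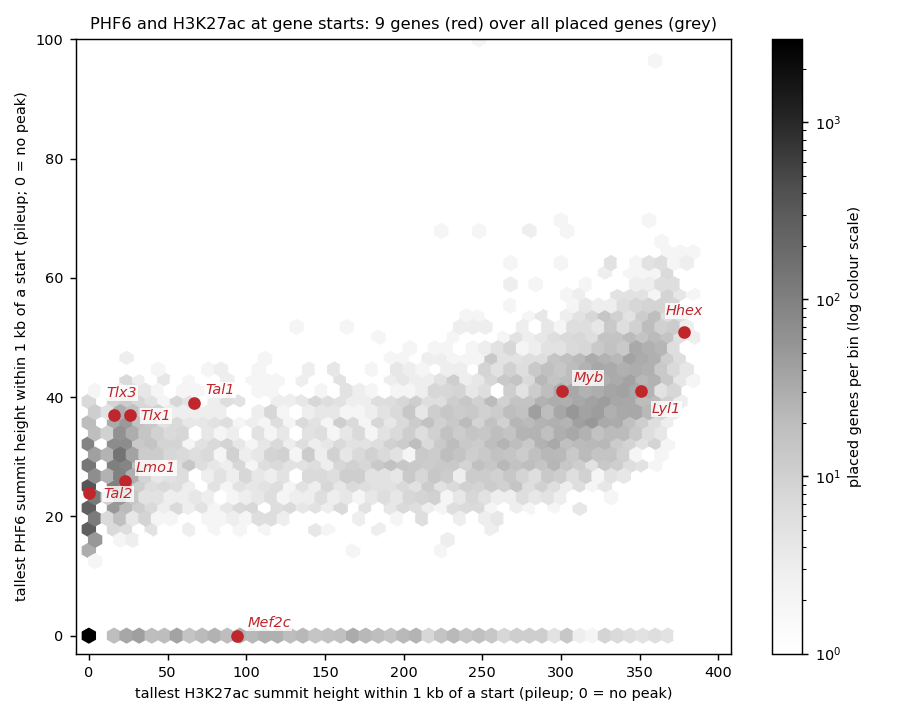
Tallest PHF6 summit height (vertical axis, pileup) against tallest H3K27ac summit height (horizontal axis, pileup) among peaks within 1 kb of a start, with 0 for no peak; red points are 9 of the 10 genes and grey bins the 13380 placed genes, 20 of which lie above the top of the vertical axis. Hhex, Lyl1 and Myb lie at high values of both, Tlx3 and Tlx1 have PHF6 at 37 with H3K27ac at 16 and 26, Tal2 lies on the left edge and Mef2c on the lower edge.

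The homeobox genes Tlx1 and Tlx3 had tall PHF6 at weakly acetylated starts. In mouse, Tlx1 is required for the spleen and Tlx3 for sensory and brainstem neurons. At Tlx3 a PHF6 peak of 4946 bp on chromosome 11 from 33099982 to 33104927 covered the gene from end to end. Its score of 1363 stood at the 99.7th percentile of the list, its width at the 99.2nd and its height of 37 at the 93.3rd. Inside it lay 3 separate H3K27ac peaks of heights 19, 16 and 16, the tallest at the 19.8th percentile of its list. Such a pairing was not unique: of 246 PHF6 peaks with at least this score, 241 overlapped H3K27ac with a median tallest height of 76, and in 28 of these the tallest was 19 or less. The tallest acetylation of the Tlx3 window, of height 50, lay 22.4 kb downstream of the gene's start.

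Tlx1 had a run of PHF6 with little acetylation. Its window of 46.9 kb held 7 PHF6 peaks, at the 75.4th percentile by peaks per kb, and 1 H3K27ac peak. That H3K27ac peak, on chromosome 19 from 45224851 to 45226261, lay at the start with a height of 26. The PHF6 peak over the start had a height of 37, and the other 6 lay between 8.87 kb upstream and 6.60 kb downstream with heights of 16 to 33. These 6 did not overlap H3K27ac, and the tallest of them lay 7.16 kb upstream. The peak 4.11 kb upstream (height 22) lay 0.348 kb from the start of the non-coding RNA gene Gm35923. Among the 1352 placed genes with PHF6 at a start acetylated to no more than 30, 92.8% had a lower PHF6 summit than the 37 of Tlx1 and of Tlx3. A single H3K27me3 peak of height 11 lay 5.58 kb upstream of the Tlx1 start, outside the PHF6 peaks.

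Lmo1 had the most PHF6 peaks of the 10 genes, and none of them reached the height of those at the Tlx1 and Tlx3 starts. Its 76.6 kb window held 10 PHF6 peaks of heights 15 to 32 and 3 H3K27ac peaks of heights 16, 17 and 23, each of which coincided with PHF6. At the start the PHF6 height was 26 and the H3K27ac height 23. Of the placed genes in the same acetylation class with PHF6, 24.0% had a lower PHF6 summit, so Lmo1 was at the low side of that class while Tlx1 and Tlx3 were at the high side. The tallest PHF6 peak of the locus, of height 32, lay inside the gene 5.60 kb from the first start. Peaks 31.8 and 33.1 kb from the first start (heights 18 and 15) lay 0.217 and 0.756 kb from the start of the non-coding RNA gene Gm44781. Lmo1 and Lmo2 encode close LIM-only paralogs, and their loci differed: 10 PHF6 peaks of at most 32 with H3K27ac no taller than 23 at Lmo1, and 1 tall peak with H3K27ac at 311 at Lmo2.

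Tal2, a short relative of Tal1, had PHF6 without any acetylation. A PHF6 peak on chromosome 4 from 53792049 to 53793049 had its summit 0.024 kb upstream of the start, with a height of 24 at the 63.9th percentile. That distance was below the scatter of matched summits for Tal2 (184 bp), so the side of the start was not resolved. Another 2 PHF6 peaks of heights 16 and 23 lay 7.21 kb upstream and 28.0 kb downstream. No H3K27ac or H3K27me3 peak fell in its 49.0 kb window. PHF6 was present at 35.2% of the 4539 placed genes with no H3K27ac at a start, and 53.3% of those with PHF6 had a lower summit than Tal2.

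Mef2c was the reverse case, with acetylation and no PHF6 peak. Its window of 203 kb held 5 H3K27ac peaks, with heights of 94, 31, 16, 20 and 48. The tallest, on chromosome 13 from 83662516 to 83669332, was 6817 bp wide (99.1st percentile) and lay at the second of 3 listed starts, and the next at the third start was 3599 bp wide. The first start held none of the 3 signals. The nearest PHF6 peaks lay 63.2 kb below and 28.4 kb above the window, which left 295 kb between them. Of 3529 placed genes with 5 or more H3K27ac peaks in their window, 10 had 0 PHF6 peaks, or 0.283%. Of the 206 among these whose windows were at least as long as that of Mef2c, Mef2c alone had 0, and their median was 11. Of all 820 placed genes with windows at least as long, 18 had 0 PHF6 peaks, or 2.2%, and the median was 5. These sets were drawn up after the Mef2c values were seen. The H3K27ac summits of Mef2c lay 572 kb or more from the nearest end of another coding gene, and the sets were not matched for this. At starts acetylated between 31 and 100, PHF6 was missing from 25.1% of 868 genes.

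H3K27me3 was called at 4 of the 10 loci, against 28.0% of placed genes, with heights below the list median. Its 4 peaks lay at Tal1 (height 13), Tlx1 (11), Hhex (14) and Mef2c (14), against a list median of 16. Only the Tal1 peak touched a start, on chromosome 4 from 114729107 to 114729814, inside both the PHF6 and the H3K27ac peak there, against 3.72% of placed genes with H3K27me3 at a start. The Mef2c peak lay near the far end of the gene, 159 kb from the first start, and was the only 1 of the 4 with a score of 100 or more (161). The developmental homeobox genes Tlx1 and Tlx3 thus had 1 low H3K27me3 peak between them. The name of this list lacks a mark that the other lists carry for their calling setting, and the part of that difference in these values was not tested.

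Over the 10 loci, 19 of 44 PHF6 peaks overlapped H3K27ac (43.2%, 95% exact binomial interval 28.3 to 59.0), against 30.3% of the PHF6 list. From the other side, 20 of 31 H3K27ac peaks overlapped PHF6 (64.5%, 45.4 to 80.8), against 71.7% of the H3K27ac list. With the Lyl1 window left out, an alternative chosen once the values were known, they were 31.4% and 54.2%. The whole-list shares lie inside the intervals, which cover counting error only and treat neighbouring peaks as independent. PHF6 peaks on H3K27ac had a median height of 37 (22 to 53) and those off it 19 (15 to 33), against medians of 29 and 20 in the list. All H3K27ac peaks held PHF6 at Lyl1, Tlx1, Tlx3 and Lmo1, and none did at Mef2c.

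**Figure D3:**
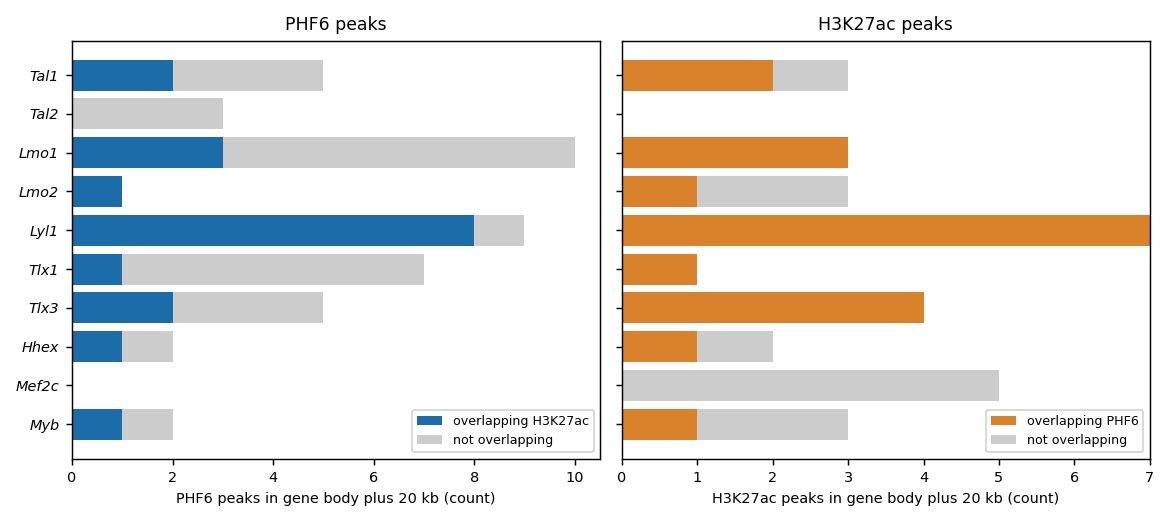
Number of PHF6 peaks (left) and H3K27ac peaks (right) in each gene window, split by overlap with the other list; coloured bars overlap and grey bars do not. Of the PHF6 peaks, 8 of 9 at Lyl1 overlap H3K27ac, against 1 of 7 at Tlx1 and 3 of 10 at Lmo1.

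CpG content of the promoter windows printed above varied with PHF6 over all placed genes. Among listed starts without H3K27ac, PHF6 was present at 13.8% of 2578 starts with 0 to 2 CpG, 37.4% of 1886 with 3 to 6, 67.3% of 966 with 7 to 16 and 84.1% of 372 with 17 or more. Among starts with H3K27ac the shares were 69.6%, 78.0%, 88.0% and 96.7%. Tal2 (11 CpG) belonged to the class of 7 to 16 and held PHF6 without H3K27ac. Tlx1 (15) and Tlx3 (13) were in the same class, and the starts of Lmo1 (29 and 17), Hhex (32) and Myb (40) were in the highest. The Tal1 starts had 6 and 16 CpG. The 3 Mef2c starts had 1, 6 and 4 CpG. Lyl1 with 5 CpG and the first Tal1 start were in the class of 3 to 6 and held both H3K27ac and PHF6, while the Mef2c starts with 6 and 4 CpG, in that class too, held H3K27ac without PHF6. Regulatory motifs were searched on both strands of the same 250 bases. The ETS core CCGGAA occurred in the Lyl1 window alone among the 9 genes with a listed start, 1 time on each strand and at separate positions, against 12.0% of all promoters with at least 1. The GATA motif AGATAA occurred in the first Tal1 window alone, against 9.99% of all promoters. The E-box CANNTG was found in at least 1 window of Tal2, Lmo1, Lyl1, Tlx1 and Mef2c, and in 66.2% of all promoters. That share is per window and not per gene, and Tal1, Lmo1 and Mef2c had more than 1 window each. A match describes the letters of these windows and shows no binding.

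**Figure D4:**
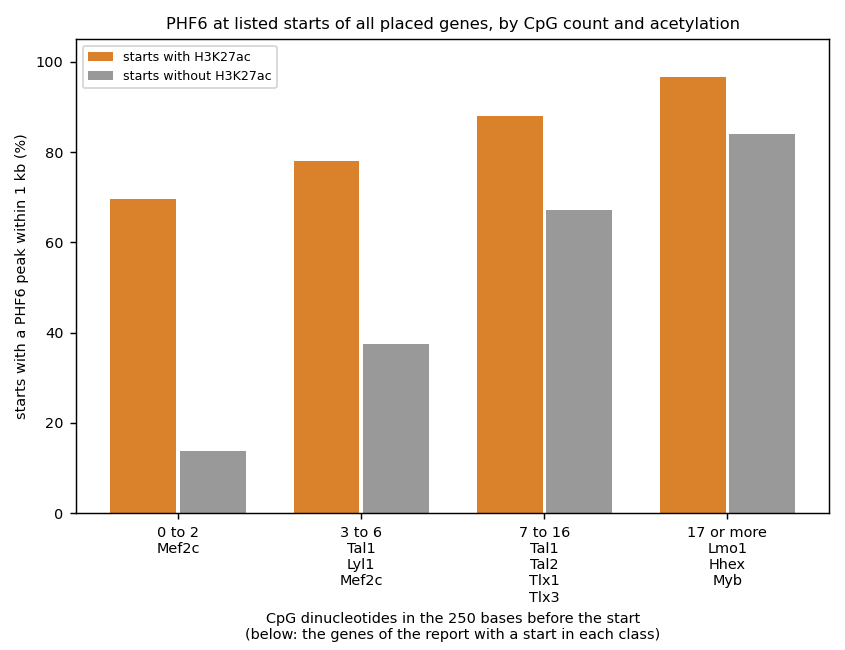
Share of listed starts of all placed genes with a PHF6 peak within 1 kb (vertical axis, percent) by the number of CpG dinucleotides in the 250 bases before the start (horizontal axis), for starts with H3K27ac (orange) and without (grey). The share without H3K27ac runs from 13.8% to 84.1%; names below each class are the genes with a start in it.

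Partners of the TAL1 and LMO2 complex, paralogs of the 10 factors and other T-ALL genes were described in the same way. A listed start was needed, so 13 of 14 placed partners, 10 of 11 placed paralogs and 18 of 22 other placed T-ALL genes were counted. The full lists held 17, 13 and 30 genes. Placing a gene needed tall H3K27ac summits at starts around it, so the counts cover only genes in such surroundings. Over all placed genes with a listed start, 66.1% had H3K27ac and 72.1% had PHF6 at a start, and the median H3K27ac height was 87. Of the 13 partners of the TAL1 and LMO2 complex (Lyl1 among them), 12 had H3K27ac and 12 had PHF6 at a start, with a median H3K27ac height of 318. The tallest were the E-protein genes Tcf3 (373) and Tcf12 (349), the RUNX partner gene Cbfb (360) and Lyl1 itself (351), and Runx2 had none. Gata2 and Gata3 (the second also in the T-lineage list), which encode the GATA factors that bind TAL1 and LMO2 in blood stem cells and T cells, had heights of 19 and 62. Among the 10 paralogs of the factors, 5 had H3K27ac and 7 had PHF6 at a start, the PHF6 count being near the share of all placed genes. The acetylated ones were Mef2d (365), Mef2a (348), Lmo4 (331), Mybl2 (323) and, at a low level, the cardiac gene Nkx2-5 (21). Lmo3, Mef2b, Nhlh1 and Nhlh2 were among those without. Of the 18 other T-ALL genes counted, 18 had H3K27ac and 16 had PHF6 at a start. The Polycomb genes Ezh2 (374) and Suz12 (353), Etv6 (364) and Cnot3 (360) were the tallest.

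Markers of the cells stood as follows, counted for placed genes with a listed start. These were 17 of 20 placed B-lineage and pre-B genes and 13 of 18 placed T-lineage genes. Of the placed myeloid genes 7 of 8 were counted, and of the placed erythroid and megakaryocytic genes 7 of 8. The full lists held, in this order, 22, 18, 10 and 10 genes. Of the 17 B-lineage and pre-B genes 13 had H3K27ac at a start, including Pax5 (313), Ebf1 (297), Vpreb1 and Igll1 (329 each), and 8 reached 200. Of all placed genes with a listed start 66.1% had H3K27ac at a start and 40.8% reached 200, so these counts were near the background. Bach2, Dntt, Rag1 and Rag2 had none. Of the 13 T-lineage genes 6 had H3K27ac at a start and 0 reached 200. The tallest were Tcf7 (128), Cd5 (118), Lck (109) and Lat (104). Cd3d, Cd3e, Cd3g and Cd8a were among those with none. Myeloid genes had H3K27ac at 2 of 7 starts (Fcgr1, 24, and Cebpa, 20), and erythroid and megakaryocytic genes at 1 of 7 (Klf1, 283). Beside these, the 9 T-ALL factor genes had H3K27ac at 8 starts and reached 200 at 3. At Tlx3, Lmo1 and Tlx1 the heights were 16, 23 and 26. The median height, with 0 for no peak, was 67 for these 9 genes and 188 for the B-lineage and pre-B genes. It was 0 for each of the other marker lists and 87 for all placed genes.

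The placed genes most like the 3 factor genes with the most PHF6 peaks were found over 6 percentiles, the peak count in the window and the tallest height at the start for each list. Nearest to Lmo1 were Dpep3 and Ttc22, at distances of 2.98 and 5.07 percentile points. Nearest to Lyl1 were Mrpl43 (2.49) and Ten1 (4.76), and nearest to Tlx1 were Galnt16 (2.57) and Lhfpl5 (6.67). With 1 library per list, this likeness compares 3 libraries.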

How the data were processed

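The deposited lists hold, per the labels, 1 library for each of the 3 antibodies. Bowtie2, SAMtools, MACS 1.4.0 and build mm9 are named in the submitters' processing notes, without roles or options. Each deposited list carries a threshold of 1e-6 in its name, and those of PHF6 and H3K27ac also carry a mark for calling without a local background, which that of H3K27me3 lacks. The deposited score of each peak starts at 60, and the deposited signal of each summit is a whole-number height of at most 400. The lists give no read totals, so depth is unknown.

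Gene bodies and starts came from RefSeq tables of GRCm38.p6. They were moved to mm9 by the offset at which most H3K27ac summits of height 200 or more lay within 500 bp of listed starts within 2 Mb. Offsets were searched between 0 and the difference in chromosome length (GenomeInfoDb 1.38.1), plus 1 Mb on both sides, and corrected for a summit displacement of 164 bp downstream of starts. A gene was placed with at least 4 matched summits and at least 2 times the next best offset more than 20 kb away, so placed genes lie near acetylated starts. The 10 genes had 4 to 32 matches, against 1 to 7. Mef2c had the fewest (4 against 1), followed by Tal2 (5 against 2). The routine was tested on simulated summits with known offsets. That test scored only placed genes away from changes of offset. It did not look separately at genes with few matches, such as Mef2c and Tal2. Peaks overlapped when they shared at least 1 bp. Named list genes were up to 4 of the tallest by H3K27ac and up to 4 without it. In the myeloid and the erythroid and megakaryocytic lists those without it were not named. The text adds others, chosen after their values were seen. The genes and lists were chosen with earlier results of these data known. Intervals are exact (Clopper-Pearson), at 95%. The values were computed in Python 3.11.15 with scipy 1.17.1, pandas 2.3.3 and numpy 2.4.6, and drawn with matplotlib 3.10.9.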

Additional observations from a re-analysis of the deposited data

How the results depend on the processing

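Of 99 values recomputed under alternatives, 89 stayed within 1.5 times the count or inside the counting interval. When the offset was set by summits of height 300 or more, 5 of the 10 genes could be placed (Tal2, Lmo1, Myb, Tlx3 and Mef2c could not), so the loci with PHF6 and with H3K27ac were 5 each and the starts with each were 4, by construction. In the other offset settings 8 or 9 genes were placed and their positions moved by at most 129 bp. With the offset set by starts within 1 Mb, Tal2 and Mef2c could not be placed. The best offset of neither then lay within 500 bp of the one used. H3K27me3 was found at 7 loci with a flank of 100 kb and at 1 with a score of 100 or more. At starts it was found at 2 with a window of 5 kb, and at 0 both with a score of 100 or more and without peaks present in all 3 lists. With a flank of 50 kb, PHF6 and H3K27ac were each present at 10 loci, Mef2c and Tal2 included. No paired analysis was possible because there was a single library of every antibody. Unknown depth and single libraries limit every value, and a peak missing from a list does not show that the signal was absent.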
